A study of Mus musculus with 8 samples.

Results

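Antisense circRNAs are circular RNAs assigned to the place of a known gene but to its other strand. They were taken as all entries of the circRNA table that the authors annotated as antisense, 330 of 1005 circRNAs, with no filter of their own. The RNA came from bone marrow of wild type C57BL/6 female mice aged 8 to 10 weeks, and all sorted cells were B220+. Pro-B cells carried CD43 but no IgM (IgM- CD43+) and pre-B cells neither (IgM- CD43-), whereas immature B cells were IgM+ CD43-, as were mature B cells, which differed by high B220 (B220hi). Cells of 3 mice were pooled for each stage and made into 1 library of rRNA-depleted RNA and 1 of small RNA. The design therefore held no replicates, no difference below has a replicate check, and intervals are 95% Wilson intervals that cover counting error only.

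A circRNA forms when a downstream splice donor is joined to an upstream splice acceptor, which closes the RNA into a ring and leaves a back-spliced read as its signature. Most circRNAs known from animal cells consist of exons of their parental gene and run in its direction. An antisense circRNA needs transcription of the opposite strand and splice signals on that strand, so it shares none of the splice sites of the gene across from it. Throughout, the gene on the other strand is called the opposite gene.

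The annotation was checked against RefSeq genes of GRCm38.p6. Of the 330 antisense circRNAs, 325 had an opposite gene that could be matched by symbol, and 315 of these lay wholly inside it at the table's coordinates. The strand of the opposite gene was known for 257, and all 257 circRNAs lay on the other strand. Among the circRNAs of the other gene-linked classes, 520 of 520 lay on the strand of their gene. The coordinates therefore fit GRCm38 and are given in that build, although the submitters' processing notes name mm9. The table gave the same number for spliced length and genomic span in 330 of 330 antisense circRNAs, so no exons within them were resolved.

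Reference sequence reached the ends of 2 antisense circRNAs, both with their 3′ end near the start of the opposite gene. Each is shown 5′ to 3′ on the circRNA strand from GRCm38.p6 (RefSeq), with the last 20 bases of the circRNA followed by 10 bases of flank. The capitals mark the first bases after the 3′ end, where a splice donor has GT.
novel_circ_000586, opposite Klf2, chr8:72319054-72319083, minus strand: cgccatggcagggactgtgtGTgctgtggc
novel_circ_000594, opposite Zfp664, chr5:124862688-124862717, minus strand: acgcctccgggaggatggggGTggtgggag

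Both 3′ ends were followed by GT. Over all classes, 6 circRNA ends fell in such sequence windows around gene starts, and 6 of 6 had GT after a 3′ end or AG before a 5′ end on the strand of the circRNA. The authors' calling kept only breakpoints flanked by GU/AG, so this outcome was set by the calling. It checks the coordinates against the build and is no separate evidence of splicing. The circRNA opposite Klf2, a transcription factor gene of quiescent lymphocytes, spanned 584 bases and ended 2 bases inside the gene. It had 4 reads in the pro-B library and 0 in the other libraries. The circRNA opposite Zfp664, a zinc finger gene, spanned 25093 bases of a gene of 25926 bases and ended 7 bases before its start. Its 4 reads came from the immature B library.

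Antisense circRNAs made up a similar share of the circRNAs found in each stage. In the pro-B library 73 of 297 circRNAs were antisense (24.6%, interval 20.03% to 29.8%). In the pre-B library they were 98 of 349 (28.1%, 23.6% to 33.0%). The immature B library had 103 of 365 (28.2%, 23.8% to 33.0%) and the mature B library 85 of 324 (26.2%, 21.7% to 31.3%). Each of these intervals overlapped the other 3, so no stage stood apart by its share of antisense circRNAs at this depth.

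By reads the picture was similar. Antisense circRNAs had 323 of 1370 back-spliced reads in pro-B cells (23.6%, interval 21.4% to 25.9%) and, at the pre-B stage, 441 of 1719 (25.7%, 23.6% to 27.8%). Immature cells gave 448 of 1751 (25.6%, 23.6% to 27.7%) and mature cells 363 of 1531 (23.7%, 21.6% to 25.9%). The largest single count was 12 reads in the pre-B and immature B libraries and 8 reads in the pro-B and mature B libraries. These totals set the resolution, since 1 read was worth 730, 582, 571 and 653 RPM from the earliest stage to the latest (RPM scales each count to the back-spliced reads of its library).

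**Figure D1:**
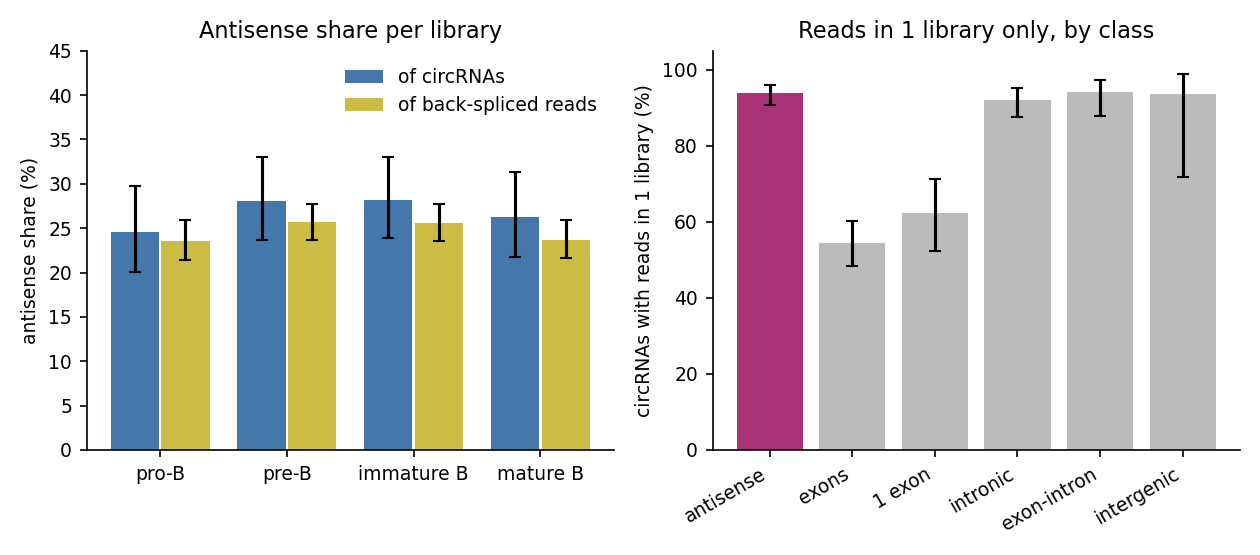
Left, share of antisense circRNAs among circRNAs (blue bars) and among back-spliced reads (yellow bars) in each of the 4 libraries, in percent. Right, percent of circRNAs of each annotation class with reads in 1 library only. Error bars are 95% Wilson intervals of counting error. The antisense share stays between 23.6% and 28.2% in all libraries, and the antisense, intronic and exon-intron bars stand above 90% on the right, with the intergenic bar, from 16 circRNAs, at a like height but a wide interval.

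Most antisense circRNAs rested on few reads. The median over the 4 libraries together was 4 reads, and 235 circRNAs (71.2%) had 4 or fewer. Exactly 4 reads were counted for 182 circRNAs, 6 reads for 50 and 8 reads for 28, while 3 and 2 reads were counted for 28 and 25. Only 13 circRNAs (3.94%) reached 10 reads. Of the 359 counts above 0, 318 (88.6%) were even numbers, against 376 of 475 (79.2%) for circRNAs of annotated exons. The sources used here do not say whether both mates of a read pair were counted. If they were, the number of molecules behind each count is lower, and the intervals and the floor of 3 reads used below are too tight.

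Reads came from 1 library only for 310 of the 330 (93.9%, interval 90.8% to 96.0%). The pro-B library held 62 such circRNAs, the pre-B library 85, the immature B library 89 and the mature B library 74. Circles of several annotated exons were in 1 library in 146 of 268 cases (54.5%, 48.5% to 60.3%), and circles of a single exon in 61 of 98 (62.2%, 52.4% to 71.2%), both below the antisense interval. Intronic circRNAs (176 of 191, 92.1%, 87.4% to 95.2%) and exon-intron circRNAs (96 of 102, 94.1%, 87.8% to 97.3%) overlapped it. Exonic circRNAs also had more reads, with a median of 6. Among circRNAs with 8 or more reads, 30 of 41 antisense ones were in 1 library (73.2%, 58.1% to 84.3%), against 14 of 115 of annotated exons (12.2%, 7.39% to 19.4%), 13 of 23 intronic ones (56.5%, 36.8% to 74.4%) and 12 of 17 exon-intron ones (70.6%, 46.9% to 86.7%). This cut does not match depth between the classes. Of the 41 antisense ones, 28 had exactly 8 reads and the maximum was 25, whereas circles of several annotated exons had up to 134. No test was run on these shares.

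The other 20 antisense circRNAs had reads in 2 or more libraries, 14 in 2, 3 in 3 and 3 in 4 of them. The pair of libraries with the most circRNAs in common had 8, and this number was reached both by pro-B with immature B and by pre-B with immature B. Pro-B and mature B shared the fewest, 4.

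The circRNA with the most reads was novel_circ_000904 (chr8:123374641-123374906, minus strand, 266 bases), opposite Tcf25. It had 2, 12, 7 and 4 reads (here and below from the earliest stage to the latest), so the pre-B library was highest and the pro-B library lowest. Tcf25 itself had an FPKM of 8.91, 2.17, 13.5 and 52.3 in this order, highest in the mature B library. FPKM is the deposited level, scaled to transcript length and to mapped fragments, and its sum over all mRNAs was 75584, 23366, 23544 and 76880 in the 4 libraries, so FPKM values of the pre-B and immature B libraries are on a lower scale in sum, though not for every gene. Scaled to the total of the estimated counts of mRNAs (CPM), Tcf25 had 179, 125, 143 and 278. Those totals were 867920, 240231, 223495 and 849350, so CPM values of the pre-B and immature B libraries rest on fewer counts.

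Novel_circ_000330 (chr9:32449447-32450076, plus strand, 630 bases) lay opposite Fli1, which encodes an ETS family transcription factor of blood cells. It had 4, 2, 6 and 2 reads and was, with the Tcf25 circRNA and one opposite Malat1, among the 3 found in all libraries. Fli1 had 151, 70.3, 43.4 and 257 CPM. The circRNA was highest in the library where its opposite gene was lowest, by 2 reads over the next library. The Fli1 level there rested on 9.71 estimated counts, and that in pre-B cells on 16.9, so the order of these 2 libraries is uncertain.

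The circRNA opposite Srsf3, which encodes a splicing factor, was novel_circ_000626 (chr17:29039688-29039846, minus strand, 159 bases). It had 0, 8, 6 and 0 reads, and so was found in the pre-B and immature B libraries and in neither of the outer stages. Srsf3 mRNA had 409, 353, 286 and 126 CPM. Another splicing factor gene, Rbm39, had 2 antisense circRNAs that overlap each other. Novel_circ_000742 had 2, 0, 6 and 0 reads, and novel_circ_000593, which contains it, had 0, 0, 4 and 4.

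Novel_circ_000652 (chr11:106248347-106248622, minus strand, 276 bases) lay opposite Ddx42, a DEAD-box RNA helicase gene. Its reads were 4, 8, 1 and 0, while Ddx42 was listed at an FPKM of 0 in all 4 libraries. Opposite Mynn, a zinc finger gene, novel_circ_000782 had 0, 0, 10 and 1 reads. Novel_circ_000152, opposite the DNA polymerase mu gene Polm, had 4 reads in pro-B and 4 in mature B cells, with 0 in the stages between.

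**Figure D2:**
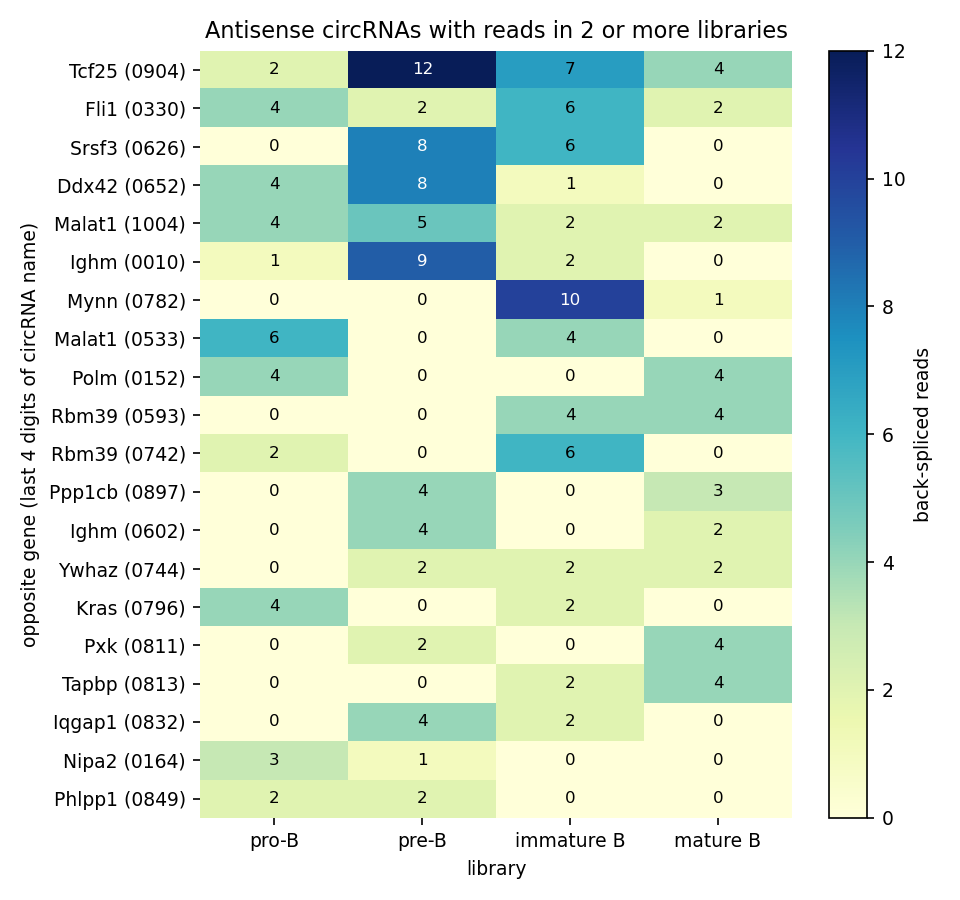
Back-spliced reads of the 20 antisense circRNAs found in 2 or more libraries, with 1 row per circRNA, named by its opposite gene and the last 4 digits of its name, and 1 column per library. Darker cells hold more reads and the count is written in each cell. The rows opposite Tcf25, Fli1 and Malat1 (novel_circ_001004) have reads in every column, and the highest count is 12.

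Among circRNAs of 1 library, the highest counts came from immature B cells. Novel_circ_000457 opposite Zbtb20, a zinc finger repressor gene, had 0, 0, 12 and 0 reads. With a count of 0 set to the floor of 3 reads, this was 3.93-fold the pre-B value and 3.50-fold the mature B value. These ratios leave out the counting error of the 12 reads. The circRNA opposite Lrmp, a gene of an endoplasmic reticulum protein of lymphocytes, had 0, 0, 10 and 0 reads (novel_circ_000603, 280 bases). Lrmp was listed at an FPKM of 0 in that library and at 11.4, 3.11 and 4.23 in the pro-B, pre-B and mature B libraries. Novel_circ_000480, opposite the mRNA decapping gene Dcp2, also had 10 reads in immature B cells and 0 elsewhere.

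In pre-B cells the highest 1-library count was 10, for novel_circ_000666 opposite St7. The pro-B library had counts of 8 for circRNAs opposite Atp2b1 (a plasma membrane calcium pump gene), Coro2b, Pip5k1b and Serinc3. In the mature B library 8 reads each were found opposite Shisa5, Safb2, Klf13, Ddx39b and Zc3h15, among others.

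A difference between neighbouring stages was called at 2-fold in RPM, with counts of 3 or fewer set to 3. At this floor the 235 circRNAs with 4 reads or fewer could not be called, and 75 of the 330 were called in at least 1 comparison. From pro-B to pre-B, 12 antisense circRNAs were higher (3.64%) and 21 lower (6.36%), where 3.68% and 7.76% of all 1005 circRNAs were called. From pre-B to immature B, 12 were higher (3.64%) and 22 lower (6.67%), beside 4.98% and 9.05% of all. From immature B to mature B, 18 were higher (5.45%) and 12 lower (3.64%), beside 6.97% and 4.78%. The shares among antisense circRNAs lay below or near those of all circRNAs throughout, and the background value was within the interval of the antisense share in all 6 cases.

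The balance of higher and lower calls depended on the scaling. A count of 6 reads against the floor of 3 is exactly 2-fold before scaling, so the library totals decide it. All 17 circRNAs with 6 reads in pro-B and 3 or fewer in pre-B cells were called, and none of the 11 in the reverse case. Beyond 6 reads the calls were 12 higher and 4 lower from pro-B to pre-B, 12 and 11 from pre-B to immature B, and 7 and 12 from immature B to mature B. With RPM taken over the reads of exonic circRNAs, 3 were higher and 21 lower in the earliest comparison, and 20 higher and 11 lower from pre-B to immature B, where the main scaling gave 12 and 22. The latest comparison gave 18 and 11. With counts of 1 or fewer set to 1, the splits were 83 higher and 68 lower, 84 and 93, and 79 and 84, so the earliest and the latest comparison changed which direction had more calls. In 22 cases a circRNA was called in both of 2 successive comparisons, higher and then lower or the reverse, and 20 of these had reads in 1 library alone.

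Antisense circRNAs were short. The median genomic span was 1534 bases, with quartiles of 543 and 5288 and a 95% order-statistic interval of the median from 1227 to 2059. Circles of several annotated exons had a median span of 5846 bases and exon-intron circles one of 5802, while intronic circles had 1118 and single-exon circles 510. Under 1000 bases lay 128 antisense circRNAs (38.8%), and 57 (17.3%) were over 10000. The medians per library ran from 1258 in pro-B to 1558 in immature B cells, a range smaller than the interval of the overall median. The 20 circRNAs of 2 or more libraries had a median of 663 bases, against 1586 for the other 310.

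**Figure D3:**
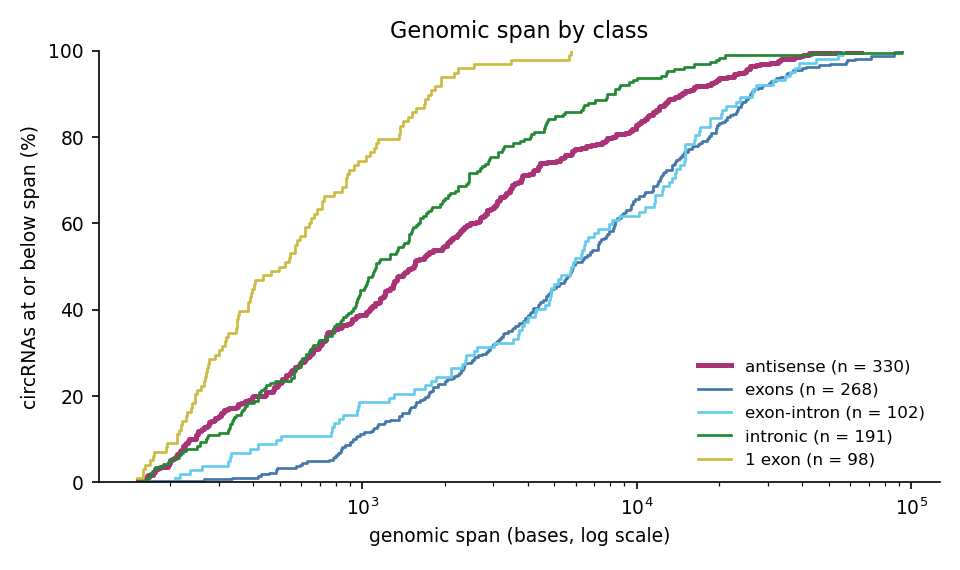
Cumulative percent of circRNAs (vertical axis) at or below each genomic span in bases (horizontal axis, log scale), with 1 line per annotation class. The antisense line (thick purple, n = 330) crosses 50% near 1534 bases, between the lines for intronic circles and circles of several annotated exons.

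The shortest was novel_circ_000812 (chr1:128589665-128589817, plus strand), 153 bases opposite the chemokine receptor gene Cxcr4, with 4 reads in pro-B cells. The longest was novel_circ_000551 (chr13:52582782-52648442, minus strand), 65661 bases opposite Syk, the tyrosine kinase that passes on the signal of the B-cell receptor. It covered 99.2% of the gene and both of its RefSeq starts in the promoter table, and had 4 reads in pre-B cells. The circles covered a median of 3.04% of the opposite gene in the 315 that lay inside it, against 9.97% for circles of several annotated exons.

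Position along the gene differed by class. When each opposite gene was cut into 3 equal parts, 95 antisense circRNAs had their centre in the part with the gene's start (30.2%, interval 25.4% to 35.4%), 91 in the middle (28.9%, 24.2% to 34.1%) and 129 in the part with its end (41.0%, 35.7% to 46.5%). For circles of several annotated exons the middle part was the largest, with 126 of 266 (47.4%, 41.4% to 53.4%). Intronic circles were most frequent near the start, 75 of 174 (43.1%, 36.0% to 50.5%), and least near the end (21.3%, 15.8% to 27.9%).

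Antisense circRNAs lay on every chromosome that had circRNAs. Chromosomes 1, 2, 5 and 11 held the most, with 30, 29, 27 and 26, followed by chromosome 13 with 22. Chromosome X had 3, and 150 of the 330 were on the plus strand. Mitochondrial DNA gave 2 circRNAs, and both were antisense, opposite the respiratory chain genes mt-Nd4 (novel_circ_000867, 473 bases, 4 reads in pro-B cells) and mt-Nd5 (novel_circ_000560, 739 bases, 2 reads in mature B cells). Whether these 2 entries are spliced circles was not tested. As a share of the circRNAs of a chromosome, antisense ones were lowest on chromosome X (3 of 15) and, among nuclear chromosomes, highest on chromosome 10 (17 of 30, 56.7%, interval 39.2% to 72.6%), against 32.8% over all. The intervals of the other nuclear chromosomes included that overall value.

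The 330 circRNAs lay opposite 295 genes, of which 272 had 1, 17 had 2 and 6 had 3 or more. The 6 genes were Ighm, Bach2, Syk, Malat1, Ebf1 and Aff1. Merging circRNAs that overlapped on 1 strand left 314 regions.

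Ighm encodes the constant region of the mu heavy chain, the chain of the receptor that appears on immature B cells. Its 6 antisense circRNAs had 1, 27, 2 and 10 reads together, so most came from the pre-B library. Of these, 5 overlapped within chr12:113421180-113422609 on the plus strand, inside the gene at chr12:113418826-113422730. Novel_circ_000010 (260 bases) had 1, 9, 2 and 0 reads and was the only one of the 5 with reads in 3 libraries. Novel_circ_000406, novel_circ_000212 and novel_circ_000580 had 6, 4 and 4 reads, all from pre-B cells. Novel_circ_000602 had 0, 4, 0 and 2 reads and shared its higher coordinate, 113422525, with novel_circ_000212. The remaining one, novel_circ_000931 (chr12:113422604-113426805), reached beyond the gene's start and had 8 reads in mature B cells and 0 in the others. On the strand of Ighm, 2 circRNAs had 0, 2, 17 and 4 reads together, highest in immature B cells. Ighm mRNA had 3775, 7147, 7816 and 3902 CPM, and the pre-B and immature B libraries were close in it.

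Malat1, a nuclear long noncoding RNA, had 3 antisense circRNAs with 10, 5, 14 and 2 reads together. Novel_circ_001004 and novel_circ_000894 both began at 5797799 on chromosome 19 and ended 18 bases apart. The former had 4, 5, 2 and 2 reads and the latter 0, 0, 8 and 0. Novel_circ_000533 (397 bases) had 6, 0, 4 and 0. On its own strand Malat1 had 7 circRNAs with 5, 10, 28 and 14 reads. The summed FPKM of Malat1 transcripts in the lncRNA table was 123, 22.6, 48.0 and 171, so the mature B library had the highest level and the fewest antisense reads.

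Opposite Syk, 17 of 21 antisense reads came from immature B cells. Novel_circ_000463 (1558 bases) had 0, 0, 11 and 0 reads. At the floor of 3 reads this was 3.60-fold the pre-B value and 3.21-fold the mature B value, without the counting error of the 11 reads. Novel_circ_000833 and novel_circ_000055, farther along the gene, had 4 and 2 reads in the same library, and novel_circ_000551 had the 4 reads in pre-B cells. The circRNAs on the strand of Syk had 17, 11, 10 and 2 reads, highest in pro-B cells, where no antisense read was counted.

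**Figure D4:**
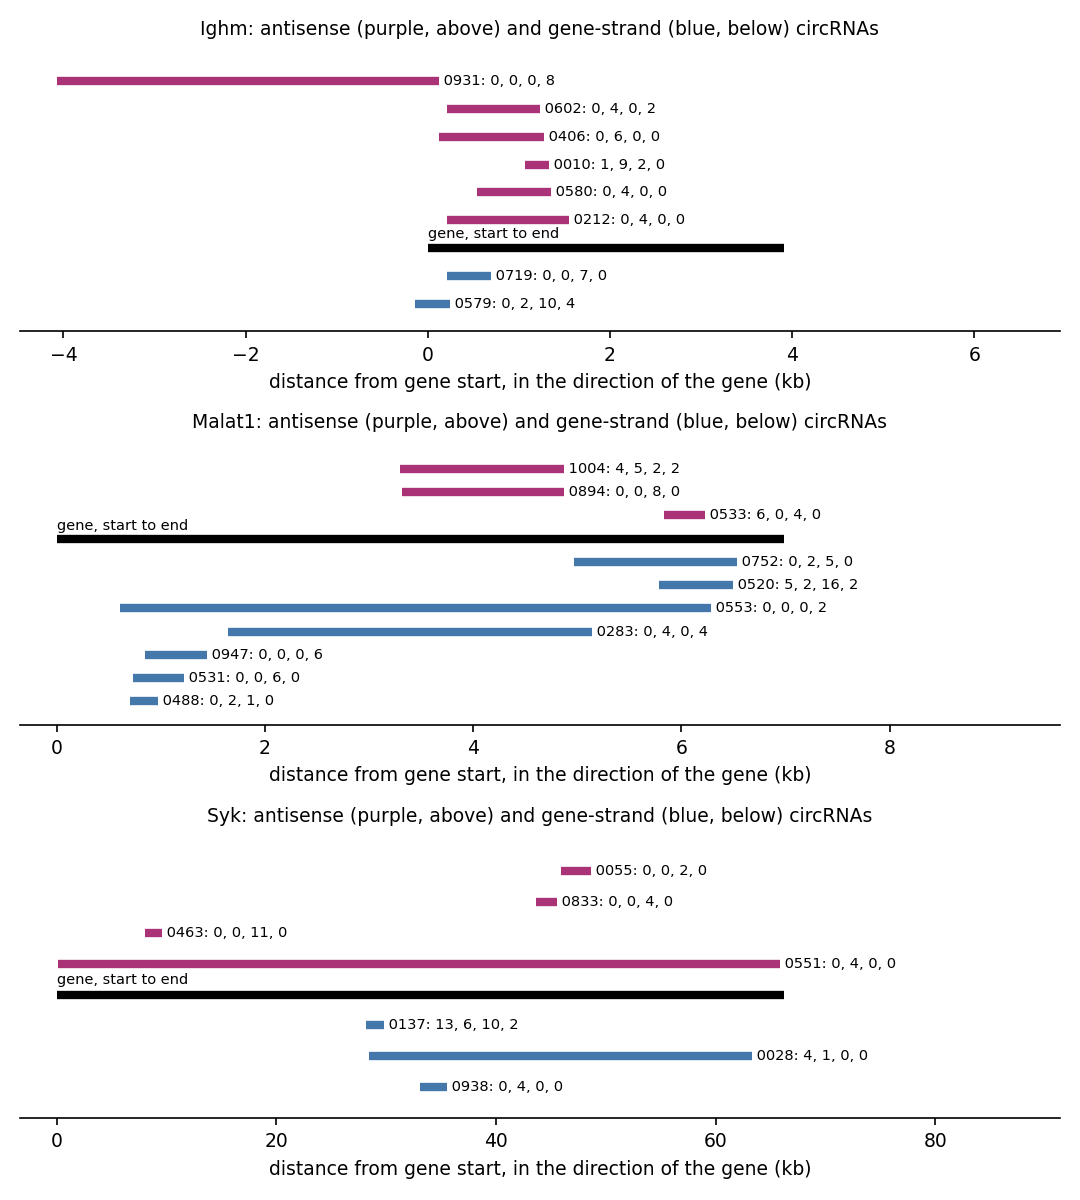
CircRNAs opposite Ighm (top), Malat1 (middle) and Syk (bottom), drawn by distance in kb from the start of the gene in its own direction, to scale. Purple bars above the black gene bar are antisense circRNAs and blue bars below are circRNAs on the strand of the gene. Beside each bar stand the last 4 digits of its name and its reads from the earliest stage to the latest. The antisense circRNAs of Ighm crowd near the start of the gene, 1 of those of Syk covers nearly the whole gene, and no purple bar shares both ends with a blue one.

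Bach2 and Ebf1 encode transcription factors of the B lineage. The 5 circRNAs opposite Bach2 lay apart from each other, none overlapping another, with 12 reads in pro-B, 18 in pre-B and 0 in the later stages. Each had reads in 1 library, 2 in pro-B (6 reads each) and 3 in pre-B cells (8, 6 and 4 reads). Bach2 mRNA had 883, 743, 507 and 918 CPM, so the gene was read in the libraries without antisense circRNAs as well. The 3 circRNAs opposite Ebf1 had 4 reads in pro-B, 3 in pre-B and 8 in immature B cells, each from 1 circRNA, while Ebf1 had 1180, 652, 446 and 771 CPM. Opposite Aff1, a gene of transcription elongation, 1 circRNA had 4 reads in pre-B cells and 2 had 6 and 4 reads in immature B cells.

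Most antisense circRNAs overlapped no circRNA of the other strand, although their opposite genes had exonic circRNAs more often than expressed genes at large. Of the 295 opposite genes, 57 had a circRNA on their own strand and 35 an exonic one. Of the 9798 genes that reached an FPKM of 1 in any library, 311 had an exonic circRNA. This difference was not tested, and the sets were not matched for gene length or level. The 295 genes were also not limited to those at this FPKM. For own-strand circRNAs of any class, no share over expressed genes is given. An overlap with a circRNA of the other strand was found for 26 of the 330 antisense circRNAs, and 0 matched one at both ends within 10 bases. No such share is given for the other classes. The 81 antisense circRNAs of the 57 genes gave 92 pairs of circRNA and library with reads. In 48 of these (52.2%, interval 42.1% to 62.1%) the gene also had own-strand circRNA reads in that library. No background share was computed for these pairs.

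The opposite gene was in the mRNA table for 322 of the 330, covering 290 genes. Taken over the 347 pairs of a circRNA and a library where it had reads, the opposite gene reached an FPKM of 1 in 269 (77.5%, interval 72.8% to 81.6%), with a median of 4.06. For circles of several annotated exons and their parental gene the share was 365 of 471 (77.5%, 73.5% to 81.0%), and for intronic circles 155 of 204 (76.0%, 69.7% to 81.3%). Genes opposite antisense circRNAs were thus as often expressed at this level as the parental genes of exonic circles, within a difference that these intervals cannot resolve.

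The share followed the library. It was 66 of 69 (95.7%, interval 88.0% to 98.5%) in the pro-B library and 76 of 84 (90.5%, 82.3% to 95.1%) in the mature library. The pre-B library had 64 of 95 (67.4%, 57.4% to 76.0%) and the immature library 63 of 99 (63.6%, 53.8% to 72.4%). Of all 22298 mRNA genes, 38.8%, 18.4%, 18.7% and 35.9% reached an FPKM of 1 in the same order, and the low pre-B and immature B values moved with the low FPKM sums of those libraries.

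Opposite genes of circRNAs with and without reads in a library had close median FPKM there, apart from mature B cells. No test was run. The median FPKM of opposite genes was 8.61 with reads and 9.36 without for pro-B cells, 1.82 and 1.54 at the pre-B stage, and 1.51 and 1.71 at the immature stage. In mature B cells it was 13.8 for the 84 with reads and 6.95 for the 238 without, and in CPM 237 and 155. For circles of several annotated exons the mature B medians were 9.47 and 6.765 FPKM. In CPM the antisense medians with and without reads were 144 and 192 in pro-B, 125 and 99.8 in pre-B, and 121 and 108 in immature B cells. The opposite gene with the highest FPKM was H2-Ab1, an MHC class II gene, with 40.8, 9.08, 31.5 and 525 FPKM. Its circRNA had 4 reads, from mature B cells. After it came Ighm, mt-Nd5, mt-Nd4 and Cxcr4.

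For circRNAs of 1 library, the opposite gene was highest in that same library by FPKM in 82 of 302 cases (27.2%, interval 22.4% to 32.4%) and by CPM in 87 (28.8%, 24.0% to 34.2%). For circles of several annotated exons it was 28.7% (21.9% to 36.6%) by FPKM and 34.97% (27.6% to 43.1%) by CPM. By stage and in CPM, this held for 29 of 59 circRNAs of pro-B cells (49.2%). Over all 302 circRNAs, the opposite gene was highest in pro-B cells for 40.1%, with a gene counted once per circRNA. It held for 34 of 74 circRNAs of mature B cells (45.9%, beside 35.1%), 11 of 83 of pre-B cells (13.3%, beside 13.2%) and 13 of 86 of the immature stage (15.1%, beside 11.6%). In CPM the interval included the value over all 302 circRNAs in each stage, but only narrowly in mature B cells (lower bound 35.07%, beside 35.10%). By FPKM it did not include that value in mature B cells, with 44 of 74 (59.5%, 48.1% to 69.9%) beside 46.7%. The FPKM intervals of the other stages did.

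In 16 of 347 pairs the opposite gene was listed at an FPKM of 0 in a library where the circRNA had reads. The parental gene was at 0 in 23 of 471 pairs for circles of several annotated exons and in 24 of 204 for intronic circles. It was at 0 in 1 of 145 pairs for single-exon circles and in 1 of 104 for exon-intron circles. A listed 0 was therefore not particular to antisense circRNAs. Of the 16 antisense pairs, 12 were in pre-B or immature B cells, the libraries with the lowest totals of estimated mRNA counts. The 16 pairs involved 14 genes, of which Cops5, Hip1r and Ddx42 were at 0 in all libraries. Ptk2b, a tyrosine kinase gene, was listed at 0 in mature B cells only, where its antisense circRNA had its 4 reads.

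Genes with an antisense circRNA were long and well expressed. Of the 9798 genes that reached an FPKM of 1 in any library, 277 had one. The median length by RefSeq bounds was 63650 bases for those with an antisense circRNA and 65064 for those with an exonic circRNA, against 22620 over all expressed genes. Split by length, 13 of 2412 genes in the shortest of 4 equal bins had an antisense circRNA (0.539%, interval 0.315% to 0.920%) and 153 of 2412 in the longest (6.34%, 5.44% to 7.39%). Split by mean FPKM, the share was 0.774% in the lowest bin (0.496% to 1.21%) and 6.45% in the highest (5.54% to 7.49%). Exonic circRNAs showed the same order, with 0.829% and 7.75% by length.

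**Figure D5:**
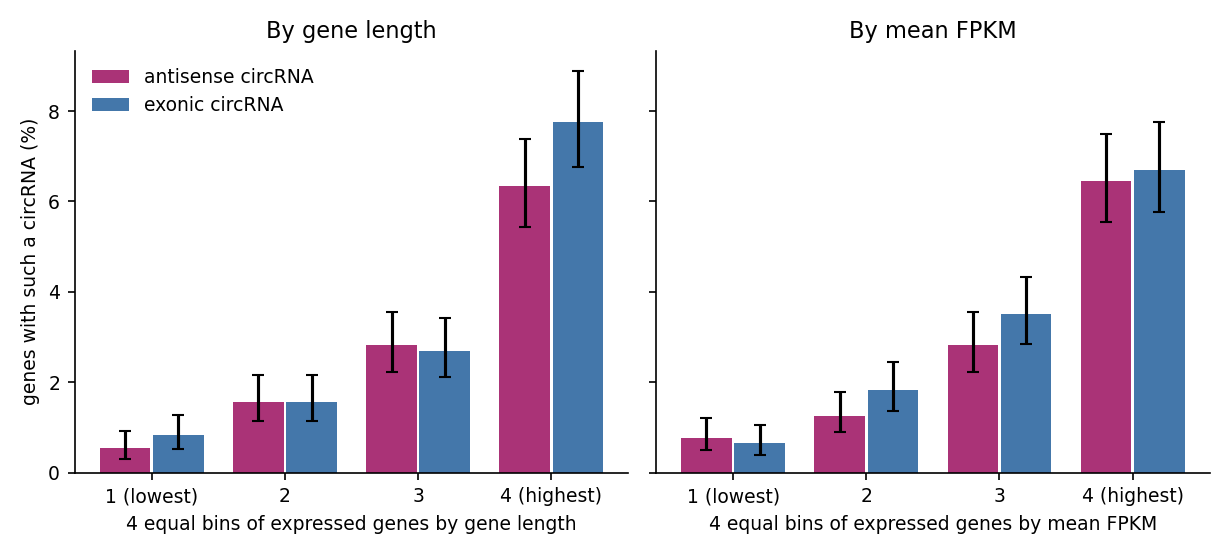
Percent of expressed genes with an antisense circRNA (purple) or an exonic circRNA (blue), by 4 equal bins of gene length (left) and of mean FPKM over the 4 libraries (right). Error bars are 95% Wilson intervals. Both kinds rise from under 1% in the lowest bin to between 6.34% and 7.75% in the highest.

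Lists of B-cell genes were read against this. Of 34 genes of B-cell receptor signalling, 7 lay opposite an antisense circRNA (Ighm, Syk, Inpp5d, Cd22, Bank1, Grb2 and Pik3r1), with 5, 39, 27 and 13 reads. Of 30 transcription factors of the B lineage, 13 did, among them Bach2, Ebf1, Fli1, Ikzf1, Ikzf3, Irf4 and Tcf3, with 30, 41, 26 and 6 reads. The latter list had its fewest reads in mature B cells, from 2 circRNAs. All antisense circRNAs together had 323, 441, 448 and 363 reads. Of 27 genes of chromatin and transcription elongation, 5 did, Aff1 and Aff3 among them, and of 21 genes of phosphoinositide and lipid signalling 8, with 22, 6, 7 and 11 reads. In the order of these 4 lists, 14 of 16, 18 of 19, 7 of 7 and 11 of 11 circRNAs had reads in 1 library. Among 263 genes of the immunoglobulin loci, Ighm alone had antisense circRNAs, and its 6 are also in the count for B-cell receptor signalling. Inpp5d (2 circRNAs, 7 reads) and Pik3r1 (1 circRNA, 4 reads) are counted in both the receptor and the phosphoinositide list. The share over all expressed genes was 2.83%. The medians of gene length in the lists were between 65295 and 108155 bases, apart from 440 for the immunoglobulin loci. The medians of mean FPKM were 11.7, 10.9, 7.07 and 4.645 in the 4 lists and 1.48 for the immunoglobulin loci, against 2.08 over all expressed genes. The shares of the lists were therefore not matched to that of all genes for length or level. The lists were drawn up with earlier results of these data known.

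Marker lists of the stages were summed as a percent of each library's FPKM sum. The pro-B markers had 0.356, 0.00882, 0.00497 and 0.00302 and the mature B markers 0.0375, 0.0431, 0.0856 and 0.480, each highest in its own stage. The pre-B markers had 0.106, 0.117, 0.139 and 0.00276, highest in immature B cells, whereas in CPM they were highest in pro-B cells (1278, 1066, 576 and 15.2). The immature B markers had 0.527, 0.850, 1.12 and 0.683, highest in immature B cells, while unscaled FPKM put Igkc and Ms4a1 highest in mature B cells (102 and 41.4) and Cd93 in pro-B cells (10.2). Of the other cell types, T and NK markers (5, 0, 0 and 3 of 6 above 0) had 0.0518, 0, 0 and 0.00181. Myeloid markers (5 of 6 above 0 in each library, with Csf1r at 0 in all) had 0.273, 0.278, 0.208 and 0.196, and erythroid ones 0.140, 0.107, 0.0769 and 0.0716. Their part in the antisense counts was not tested. In pooled libraries, fewer cells of a kind and less RNA per cell cannot be told apart.

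Precursors of 4 miRNAs lay inside 3 antisense circRNAs, and each was on the strand of the opposite gene, so the circle's strand carries the complement. The mature arms with tags in the small RNA libraries are shown because they can be set beside the circRNA's own reads. Sequences are from RefSeq, and capitals mark the seed, bases 2 to 8.
mmu-miR-6985-3p, inside novel_circ_000936 (Ssh3): cUCACAGCcaccuccucacag
mmu-miR-6943-3p, inside novel_circ_000187 (Grk6): cUGCUUCCauaccccuacccag
mmu-miR-8094, inside novel_circ_000154 (Ddx39b): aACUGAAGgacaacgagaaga

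The 3 seeds differ. On the strand of the Ssh3 circle, which had 2 reads in immature B cells, the stretch across from miR-6985-3p reads cugugaggagguggcugugag, the full complement. The miRNA had 7, 2, 3 and 0 tags. For the Grk6 circle, both its 2 reads and all 3 tags of miR-6943-3p came from immature B cells. The Ddx39b circle, which spanned 82.7% of a gene for an RNA helicase of mRNA export, had 8 reads in mature B cells, whereas miR-8094 had 3 tags in pre-B cells and 0 in the others. The precursor mmu-mir-6975 also lay inside it. At 3 tags or fewer, a count of 0 in another library is not distinguishable from the same level.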

How the data were processed

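The 4 rRNA-depleted libraries (1 per stage) were used for circRNAs and genes, and the 4 small RNA libraries for 3 miRNAs. The circRNA counts deposited by the authors are back-spliced reads found with find_circ among reads that HISAT2 left unmapped, after fastp and removal of rRNA reads. A circRNA needed GU/AG at its breakpoint and at least 2 unique back-spliced reads in a library. The RPM values deposited are counts scaled to the back-spliced reads of the library. The authors made the estimated counts and FPKM values of genes with StringTie on strand-specific libraries, and CPM was computed here from the estimated counts, unrounded. Tag counts of miRNAs were used as deposited by the authors. The submitters' processing notes also name Bowtie 0.12.2. No molecular identifiers are described, so intervals cover counting error only.

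Genes were named by the mRNA table and a gene name table (330 of 330 matched). No statistical test was run, since each group has 1 library. Shares carry 95% Wilson intervals. Calls needed 2-fold in RPM with counts of 3 or fewer set to 3, and pairs with both counts at 3 or fewer were not called. Named circRNAs were those in 2 or more libraries with 8 or more reads, the 5 highest per library, those of genes with 3 or more, those with 6 or more reads on listed genes, the shortest and longest, those that share ends, and those called in 2 successive comparisons. Others with sequence, mitochondrial or gene-level values, and the rest of the 20 in the plot of shared circRNAs, were chosen after their values were seen. Some items that this rule covers are not reported here. The members and lists were chosen with earlier results of these data known. Calculations used Python 3.11.15 (pandas 2.3.3, numpy 2.4.6, matplotlib 3.10.9, scipy 1.17.1).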

Additional observations from a re-analysis of the deposited data

How the results depend on the processing

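No paired analysis was possible because each stage has 1 library. Of 30 alternative values, 26 stayed within the interval of the main value or within 1.5 times the main count. With counts of 1 or fewer set to 1, the antisense circRNAs past 2-fold rose to 151, 177 and 163 in the 3 successive comparisons, where the main setting gave 33, 34 and 30, because 4 reads against 0 then pass. The opposite gene reached an FPKM of 5 in 43.8% of cases, against 77.5% at an FPKM of 1. The number of circRNAs in 1 library was 257 of 277 among those with 4 or more reads, 291 of 314 after merging overlaps, and 312 of 330 when 2 reads were needed. Taking the transcript with the highest FPKM was not run, as the mRNA table holds 1 value per gene. Depth limits these values: with 1 library per stage and mostly 4 reads per circRNA, 3 reads could go unseen behind a count of 0, and presence in 1 library does not show absence from the others.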

Other observations

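By the pathway column of the mRNA table, 9 of the 201 genes of the B cell receptor signaling pathway lay opposite antisense circRNAs, with 18 circRNAs and 96 reads. For the phosphatidylinositol signaling system it was 7 of 99 genes, with 10 circRNAs and 44 reads. In the 160 and 75 genes of these pathways that reached an FPKM of 1, these are 5.62% and 9.33%, beside 2.83% of all expressed genes, and were not tested. The pathways were not matched to all expressed genes for gene length or level. In the top of 4 bins the share was 6.34% by length and 6.45% by mean FPKM.

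Apart from the one opposite Syk, 4 antisense circRNAs contained the whole promoter window of a gene. They lay opposite Zfp622 (22568 bases, 4 reads in mature B cells), Jakmip1 (6786 bases, 4 reads in immature B cells), Ssh3 (11473 bases) and St6gal1, where novel_circ_000841 (37366 bases, 6 reads in pre-B cells) covered the start of Gm30814, a gene on its own strand.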
